A study of Mus musculus with 2 samples.

Results

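The iron handling genes described here are Hmox1, Fth1, Ftl1, Slc40a1, Slc11a1 and Tfrc, taken by gene symbol and making up 6 of the 32285 features counted. Their RNA was read by single-cell sequencing of subcutaneous tumors grown from MC38, a mouse colon carcinoma line, in C57BL/6 mice. MSA-2, an agonist of the innate immune sensor STING, was injected into the tumor in 3 doses spaced 3 days apart, and the comparison library is labelled untreated although the design of the series names a saline and DMSO vehicle. Tumors of 3 mice were pooled into 1 library per condition, so no test between conditions was possible, every interval below is a 95% interval for counting error only, and MSA-2 cannot be told apart from mouse, dissociation or library. The sample labels call the material tumor cells, while the counts hold immune and stromal classes as well.

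Cells take up transferrin-bound iron through the transferrin receptor, store it in ferritin cages built of heavy and light chains, and release it through ferroportin. Macrophages also recover iron from heme, which heme oxygenase 1 opens into iron, carbon monoxide and biliverdin. When iron is scarce, iron regulatory proteins bind hairpins called iron-responsive elements, hold back translation of ferritin and ferroportin and protect Tfrc mRNA from decay.

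The untreated library holds 198135335 UMIs and the MSA-2 library 204387165, and 53 barcodes occur in both. After filtering, 13316 untreated and 13403 MSA-2 cells remained, with median depths of 8280 and 9295 UMIs. Marker gates placed 75.0% and 73.0% of them in a class, and the rest stayed unassigned. Tumor-gated cells number 4269 untreated and 4653 in MSA-2, Ly6c2 monocyte-gated cells 380 and 722, fibroblast-gated cells 298 and 650, and endothelial-gated cells 63 and 80. Macrophage-gated cells number 3380 and 914, and T/NK-gated cells 1397 and 221. Neutrophil-gated cells number 29 and 2516 and dendritic cell-gated cells 148 and 10, so each of these 2 classes is described in 1 library. Levels below are UMIs per 1000000 UMIs of a class (CPM), read at the 3′ end of transcripts.

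Neutrophil marker RNA also lies outside its own gate in the MSA-2 library. The 10 neutrophil markers sum to 105680 CPM in neutrophil-gated cells, while in macrophage-gated cells they go from 203 untreated to 1514 CPM. In fibroblast-gated cells the same sum goes from 29.2 to 829 CPM, and in tumor-gated cells from 8.98 to 505 CPM. Ly6c2 monocyte-gated cells, which carry the largest Hmox1 ratio below, have the most of it, from 524 to 2748 CPM. Whether stray RNA, joined cells or the cells' own transcripts give these sums was not tested, and MSA-2 values of members that are high in neutrophil-gated cells are read with them in view. Red cell RNA is nearly absent, with 5 erythroid genes summing to 0.311 CPM untreated and 0.417 CPM in MSA-2.

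Of the members with at least 50 UMIs over both libraries, few pass 2-fold in any class. Over all cells 1 of 6, Slc40a1, is past 2-fold higher in MSA-2 and 0 are lower, where 9.46% of all genes are higher and 7.59% lower. In macrophage-gated cells 1 of 5, Hmox1, is higher and 0 are lower, against 5.86% and 5.49% of genes. In Ly6c2 monocyte-gated cells 1 of 4, again Hmox1, is higher and 0 are lower, against 11.1% and 10.9%. In fibroblast-gated cells 1 of 4, Fth1, is higher and 0 are lower, against 6.34% and 7.76%. In tumor-gated cells 0 of 5 members pass in either direction, against 8.48% of genes higher and 5.16% lower. In T/NK-gated cells 0 of 4 pass, against 3.80% and 7.05%, and in endothelial-gated cells 0 of 3, against 5.43% and 4.82%. With so few members, 1 or 0 past 2-fold is close to what those percentages give for any group of genes this small, so the counts are no result about the members as a group and each gene is taken alone.

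Hmox1 (ENSMUSG00000005413, chr8:75093621-75100589 in mm10) encodes heme oxygenase 1, the enzyme that frees iron from heme. In the untreated library it is 257 CPM (249.8 to 264) in macrophage-gated, 169.7 CPM in fibroblast-gated, 74.3 CPM in Ly6c2 monocyte-gated, 63.8 CPM in endothelial-gated, 52.1 CPM in tumor-gated, 15.95 CPM in dendritic cell-gated and 13.9 CPM in T/NK-gated cells. Macrophage-gated cells are thus highest untreated, and endothelial-gated cells do not differ from either the monocyte or the tumor neighbour beyond the intervals, nor dendritic cell-gated from T/NK-gated cells. In MSA-2 it is 527 CPM (507 to 548) in macrophage-gated, 289 CPM in fibroblast-gated, 234 CPM in Ly6c2 monocyte-gated, 129 CPM in neutrophil-gated, 96.3 CPM in tumor-gated, 53.8 CPM in endothelial-gated and 24.5 CPM in T/NK-gated cells. The same 2 classes lead in MSA-2, and no 2 neighbours in that order overlap.

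**Figure D1:**
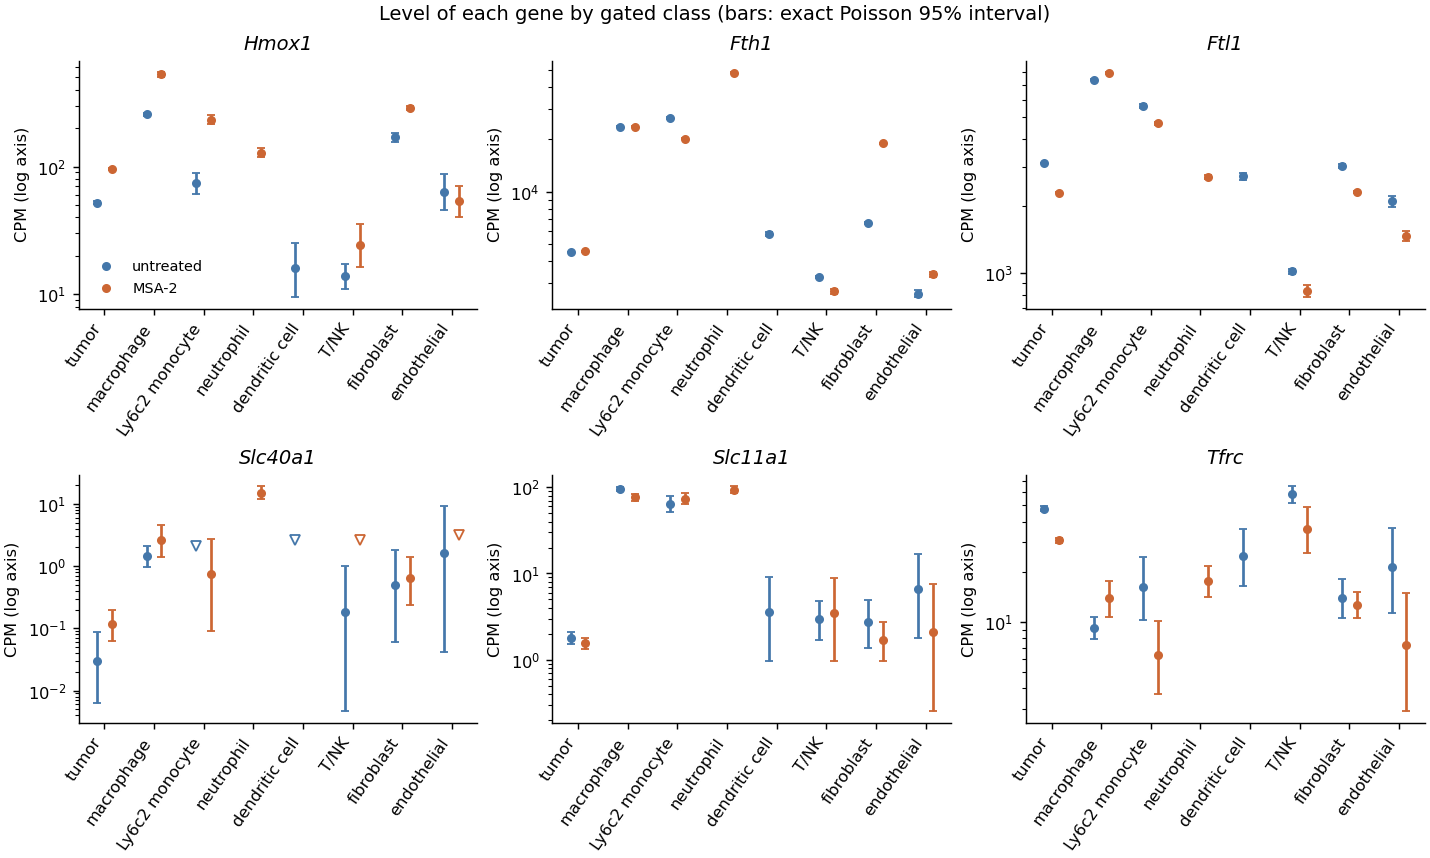
Level of each member in each gated class, in UMIs per 1000000 class UMIs on a log scale, untreated and MSA-2, with bars for the 95% counting interval and open triangles where 0 UMIs are drawn at 3 counts. Hmox1 is highest in macrophage-gated cells at 257 CPM untreated and 527 CPM in MSA-2, and Fth1 reaches 48287 CPM in neutrophil-gated cells.

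Hmox1 is higher in MSA-2 in each of the classes that have both libraries apart from the endothelial-gated cells. The log2 ratio is 1.65 (1.35 to 1.97), 3.15-fold, in Ly6c2 monocyte-gated cells. Some of this gate's own markers differ too, with Ccr2 from 369 to 137, Fn1 from 631 to 174, F13a1 from 146 to 647 and Vcan from 76.4 to 786 CPM. The 10 macrophage markers go from 6377 to 2800 CPM there. Whether the same kind of cell passed this gate in both libraries was not tested. In macrophage-gated cells the Hmox1 log2 ratio is 1.04 (0.97 to 1.11), 2.05-fold, a value at the 2-fold line that becomes 0.96 when every cell is given equal weight. When cells with any marker of another class are dropped, macrophage-gated Hmox1 takes the opposite direction, 349 CPM untreated and 196 CPM in MSA-2, from 132 and 13 cells with 236 and 10 UMIs. Hmox1 in these 2 classes therefore passes the size rule, but for macrophage-gated cells narrowly. The opposite direction there rests on 10 MSA-2 UMIs, while the 12 alternatives that left at least 50 cells per library kept it higher. In tumor-gated cells the ratio is 0.89 (0.84 to 0.94), 1.85-fold, and passes 2-fold when that same setting is used (1.26) or the marker limit is raised to 20% of the percentile. In fibroblast-gated cells it is 0.77 (0.65 to 0.89), 1.70-fold, and 1.03 with TMM factors, whose shift for this class is 0.26 on the log2 scale. T/NK-gated cells give 0.82 (0.14 to 1.46) from 76 and 28 UMIs, and 1.18 when doublets are kept. In endothelial-gated cells Hmox1 goes from 63.8 to 53.8 CPM, a log2 ratio of -0.25 (-0.87 to 0.39) that turns to 0.07 with equal weight per cell, so no direction is read there. Over all cells Hmox1 goes from 84.3 to 130.1 CPM, 1.54-fold.

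**Figure D2:**
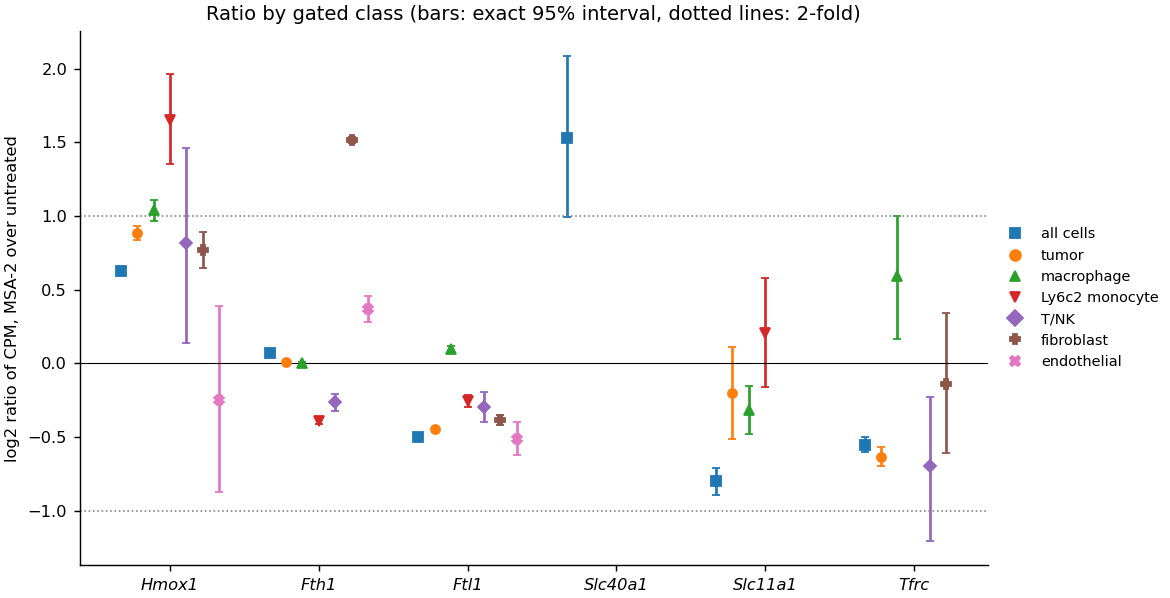
Log2 ratio of MSA-2 over untreated for each member over all cells and in each gated class with at least 50 cells in both libraries, where the member has at least 50 UMIs, with bars for the exact 95% counting interval and dotted lines at 2-fold. Fth1 in fibroblast-gated cells is at 1.52, Hmox1 in Ly6c2 monocyte-gated cells at 1.65 and Hmox1 in macrophage-gated cells at 1.04.

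Hmox1 outside macrophage-gated cells was set beside the macrophage gene C1qa. For every 100 UMIs of C1qa there are 3.73 Hmox1 UMIs in untreated macrophage-gated cells, 39.9 in tumor-gated cells and 104 in fibroblast-gated cells. In MSA-2 the same numbers are 8.58, 254 and 668. In T/NK-gated cells, the background class, the number is 8.22 untreated and 54.9 in MSA-2, the latter from 51 C1qa UMIs, also above the macrophage-gated value. C1qa itself goes from 130 to 37.9 CPM in tumor-gated, 163 to 43.3 CPM in fibroblast-gated and 169 to 44.7 CPM in T/NK-gated cells. A higher number in MSA-2 is therefore not by itself a gain of Hmox1. Hmox1 per C1qa UMI is thus higher outside the macrophage gate in each of these classes, and how much of it is stray RNA was not tested. Macrophage-gated cells held 33.1% of all Hmox1 UMIs untreated and 10.3% in MSA-2, where the class is smaller, while tumor-gated cells held 33.3% and 43.3%. The tissue total of Hmox1 thus moved from macrophage-gated toward tumor-gated and fibroblast-gated cells, the last from 4.40% to 10.9%.

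**Figure D3:**
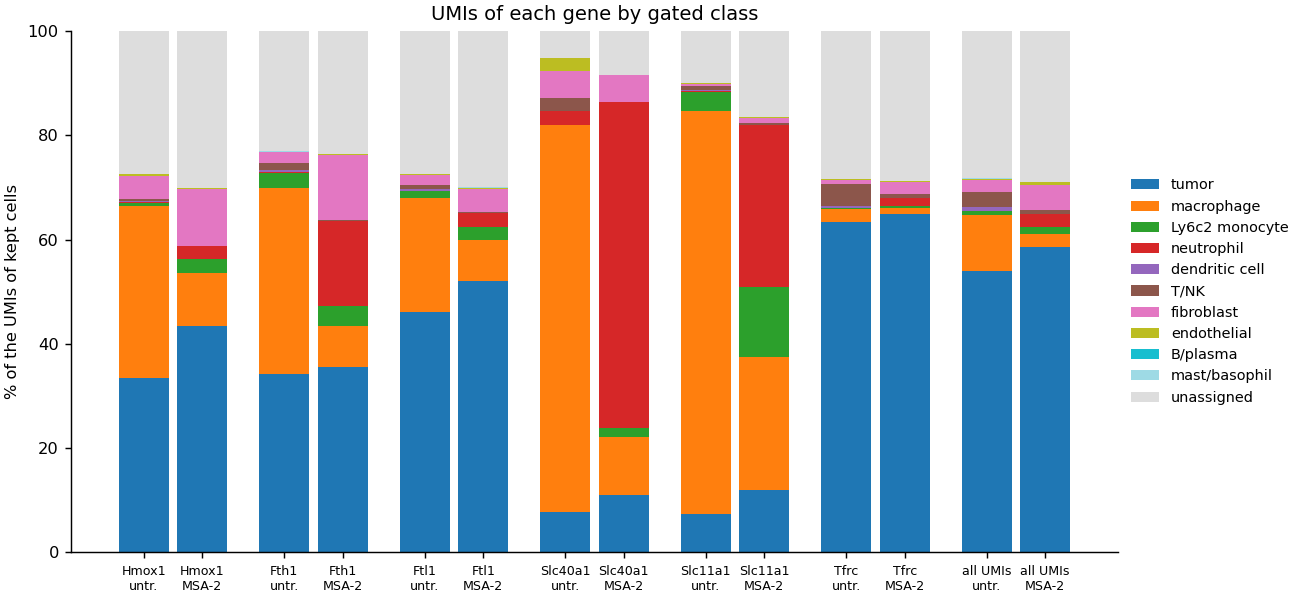
Percent of the UMIs of each member, and of all UMIs, held by each gated class among kept cells, as stacked bars for untreated and MSA-2. Macrophage-gated cells hold 33.1% of Hmox1 UMIs untreated and 10.3% in MSA-2, against 10.8% and 2.55% of all UMIs.

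With each cell thinned to 1500 UMIs, a Hmox1 UMI is found in 18.1% (16.8 to 19.5) of macrophage-gated cells untreated and 33.4% (30.3 to 36.7) in MSA-2, and unthinned in 39.0% at a median depth of 5648 and 55.7% at 5008. In T/NK-gated cells, the background class, the share is 1.34% untreated and 4.29% in MSA-2, and unthinned 5.15% at a median depth of 3329 and 9.95% at 4377. Hmox1 is therefore found in more macrophage-gated cells in MSA-2 at equal depth, and both shares lie above the T/NK background. Fibroblast-gated cells go from 15.6% to 29.0% thinned, against 54.7% and 78.2% unthinned at median depths of 12942 and 13174. Ly6c2 monocyte-gated cells go from 12.5% (9.27 to 16.3) to 17.9% (15.0 to 21.1) thinned, with overlapping intervals, and from 17.9% to 30.1% unthinned at median depths of 3478 and 3664. The median monocyte-gated cell has 0 CPM of Hmox1 in both libraries. The tenth of cells with most UMIs holds 71.4% untreated (38 cells) and 74.5% in MSA-2 (73 cells), so most Hmox1 UMIs lie in few cells. These 2 shares are not compared, since they depend on counts per cell, which are 0.276 untreated and 0.870 in MSA-2. Hmox1 is also uneven among macrophage-gated cells. The 338 untreated cells with the highest values hold 73.1% of its UMIs, and the 92 such cells of MSA-2 hold 62.5%. The median macrophage-gated cell has 0 CPM untreated and 162 CPM in MSA-2.

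Within the macrophage gate, Hmox1 is higher in the cells that also carry resident markers. Resident-gated cells have 1509.8 CPM (1325 to 1713) untreated from 24 cells and 734 CPM (660.1 to 814) in MSA-2 from 69 cells, while the other macrophage-gated cells go from 247 to 505 CPM. Hmox1 thus fell by 1.04 on the log2 scale inside the resident sub-gate and rose by 1.04 outside it. Leaving out the single cell with most Hmox1 UMIs in each library gives 1303 and 739 CPM, a log2 ratio of -0.82. The Hmox1 excess of resident-gated over other macrophage-gated cells therefore shrinks in MSA-2, from 6.12-fold to 1.45-fold. Cycling macrophage-gated cells are low, with 111 CPM untreated from 148 cells and 118 CPM in MSA-2 from 15 cells.

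**Figure D4:**
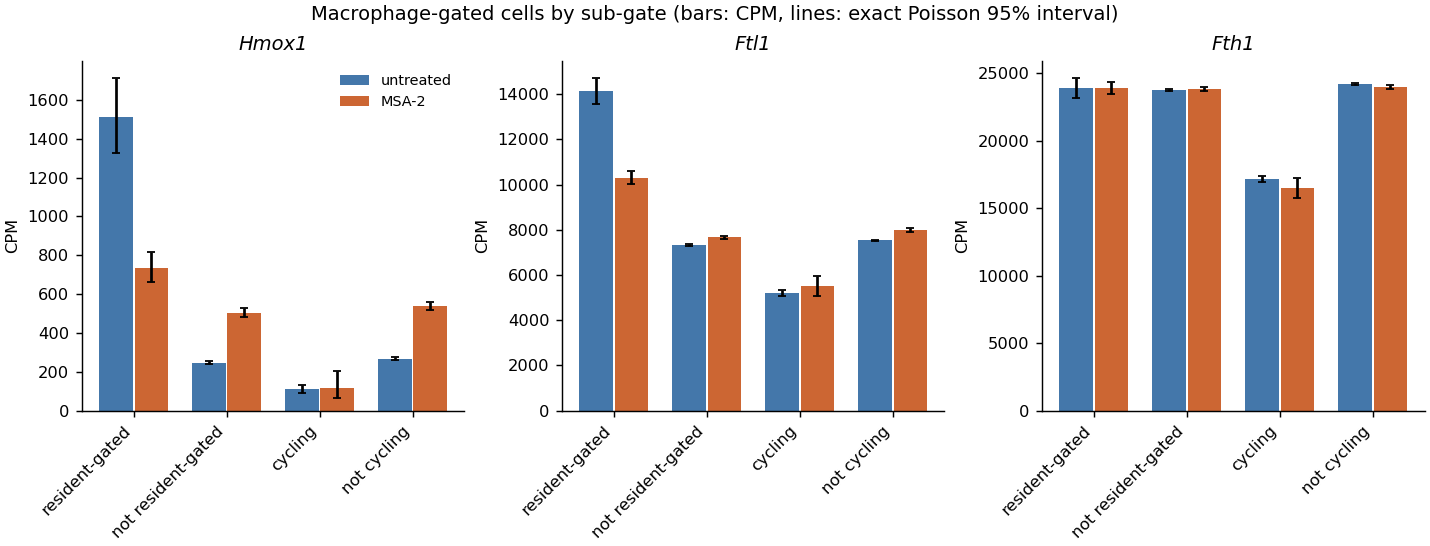
Level of Hmox1, Ftl1 and Fth1 in macrophage-gated cells inside and outside 2 sub-gates, in CPM, untreated and MSA-2, with lines for the exact 95% counting interval. Hmox1 in resident-gated cells goes from 1509.8 to 734 CPM and in the remaining macrophage-gated cells from 247 to 505 CPM.

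Macrophage-gated cells of MSA-2 were also ordered by their neutrophil marker RNA. The 457 cells with less of it have Hmox1 at 326 CPM (304 to 349.7), and the 457 with more have 735 CPM (701 to 769.9). Hmox1 in these MSA-2 cells is thus higher beside neutrophil marker RNA, while neutrophil-gated cells themselves have 129 CPM of it and the whole untreated class, which was not split, 257 CPM. In fibroblast-gated cells of MSA-2 the same split gives 268 and 312 CPM of Hmox1, and in tumor-gated cells 104 and 87.4 CPM, the other way round. Fth1 in the 2 groups of macrophage-gated cells is 19698 and 27799 CPM, on either side of the untreated 23665 CPM. Whether joined cells or cell state account for the difference was not tested. Hmox1 also tracks ferritin within the gate. Thinned macrophage-gated cells with a Hmox1 UMI have Fth1 at 28244 CPM against 22761 without in the untreated library, and 28779 against 21076 in MSA-2.

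Fth1 (ENSMUSG00000024661, chr19:9980598-9985098) encodes the ferritin heavy chain, which oxidizes iron for storage. It, Ftl1, Slc40a1 and Tfrc each carry the letters of an iron-responsive element in an untranslated region (UTR). The search was for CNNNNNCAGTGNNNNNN with 5 pairing positions on the 2 sides of the loop, G with T counted as a pair, and each entry below extends it to 27 bases with capitals marking the CAGTG loop. The Fth1 element is at chr19:9982733-9982759, the Ftl1 element at chr7:45459780-45459806 and the Slc40a1 element at chr1:45925466-45925492. In Tfrc this search found 4 elements, at chr16:32631220-32631246, chr16:32631599-32631625, chr16:32631664-32631690 and chr16:32631711-32631737, in the order given. An element with other loop letters or an unpaired position would be missed. Such letters occur in the 5′ UTR of 0.128% and the 3′ UTR of 0.58% of 21899 coding genes. They are shown as description, since protein binding and translation were not measured.
Fth1 5′ UTR: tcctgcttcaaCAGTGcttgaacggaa
Ftl1 5′ UTR: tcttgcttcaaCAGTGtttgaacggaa
Slc40a1 5′ UTR: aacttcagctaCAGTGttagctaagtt
Tfrc 3′ UTR element 1: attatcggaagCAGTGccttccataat
Tfrc 3′ UTR element 2: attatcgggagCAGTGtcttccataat
Tfrc 3′ UTR element 3: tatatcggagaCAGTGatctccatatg
Tfrc 3′ UTR element 4: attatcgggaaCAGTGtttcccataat

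Fth1 untreated is 26546 CPM in Ly6c2 monocyte-gated, 23665 CPM in macrophage-gated, 6641 CPM in fibroblast-gated, 5760.2 CPM in dendritic cell-gated, 4534 CPM in tumor-gated, 3243 CPM in T/NK-gated and 2614 CPM in endothelial-gated cells. In MSA-2 it is 48287 CPM in neutrophil-gated, 23686 CPM in macrophage-gated, 20209.7 CPM in Ly6c2 monocyte-gated, 19007 CPM in fibroblast-gated, 4568 CPM in tumor-gated, 3375 CPM in endothelial-gated and 2699 CPM in T/NK-gated cells. Fth1 is thus highest in macrophage-gated, monocyte-gated and neutrophil-gated cells where these are described, fibroblast-gated cells come up to near monocyte level in MSA-2, and no neighbours overlap in either order. It makes up 4.83% of all UMIs of neutrophil-gated cells. Those cells hold 16.3% of the Fth1 UMIs of the MSA-2 library, and macrophage-gated cells 8.02% after 35.8% untreated.

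Fibroblast-gated cells are where Fth1 differs most between the libraries. It goes from 6641 CPM (6561 to 6721) to 19007 CPM (18919 to 19095), a log2 ratio of 1.52 (1.499 to 1.54) or 2.86-fold. The Fth1 difference reaches the middle of the class, since the median fibroblast-gated cell goes from 5153 to 16484 CPM. Fibroblast-gated cells of MSA-2 with less neutrophil marker RNA have Fth1 at 17564 CPM and those with more have 20573 CPM, so both parts lie far above the untreated level. The neutrophil markers of this class sum to 829 CPM, against 105680 CPM in neutrophil-gated cells that have Fth1 at 48287 CPM. The 10 Ly6c2 monocyte markers also go from 3443 to 5656 CPM in fibroblast-gated cells, with Plac8 at 3932 CPM in MSA-2. The part that neutrophil or monocyte RNA has in the fibroblast-gated Fth1 value was not tested. Some of this gate's own markers differ as well, with Lum from 542 to 253, Col6a3 from 488 to 249 and Dcn from 3130 to 3867 CPM. Col1a2 is found in 74.2% of fibroblast-gated cells untreated and 96.2% in MSA-2. Whether the same kind of cell passed the fibroblast gate in both libraries was not tested.

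Elsewhere the class totals of Fth1 stay short of 2-fold. In macrophage-gated cells the log2 ratio is 0.00 (-0.01 to 0.01), and in tumor-gated cells 0.01 (0.00 to 0.02) with a sign that turns under several settings. Ly6c2 monocyte-gated cells have Fth1 lower in MSA-2 by a log2 ratio of -0.39 (-0.41 to -0.37), and T/NK-gated cells by -0.27 (-0.32 to -0.21). With equal weight per cell the monocyte-gated ratio is -0.64, and with TMM factors it is -0.10, so the size of this fall is not settled. Whether the same kind of cell passed the monocyte gate in both libraries was not tested. The median monocyte-gated cell goes from 26007.5 to 11967 CPM of Fth1, a larger fall than that of the class total. Endothelial-gated cells have it higher at 0.37 (0.28 to 0.46). Over all cells Fth1 goes from 7165 to 7535 CPM, a log2 ratio of 0.07 that turns to -0.12 under a stricter cell filter and is 0.60 with equal weight per cell, so the tissue total has no settled direction.

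Ftl1 (ENSMUSG00000050708, chr7:45457944-45459884) encodes the ferritin light chain, which helps the iron core form. Untreated it is 7352 CPM in macrophage-gated, 5613 CPM in Ly6c2 monocyte-gated, 3120.5 CPM in tumor-gated, 3017 CPM in fibroblast-gated, 2715 CPM in dendritic cell-gated, 2097 CPM in endothelial-gated and 1019 CPM in T/NK-gated cells. In MSA-2 it is 7873 CPM in macrophage-gated, 4697 CPM in Ly6c2 monocyte-gated, 2695 CPM in neutrophil-gated, 2311 CPM in fibroblast-gated, 2296 CPM in tumor-gated, 1473 CPM in endothelial-gated and 830.3 CPM in T/NK-gated cells. Ftl1 is thus highest in macrophage-gated cells in both libraries, and the sole neighbours that overlap are fibroblast-gated and tumor-gated cells in MSA-2.

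Ftl1 is lower in MSA-2 over all cells, from 3646 to 2579 CPM, a log2 ratio of -0.50. The ratio is -0.44 (-0.45 to -0.44) in tumor-gated, -0.51 (-0.62 to -0.40) in endothelial-gated and -0.30 (-0.40 to -0.20) in T/NK-gated cells. Each of these falls in Ftl1 stays short of 2-fold. In fibroblast-gated cells the ratio is -0.38 (-0.42 to -0.35), and -0.12 with TMM factors. In Ly6c2 monocyte-gated cells -0.26 turns to 0.03 with TMM factors, whose shift there is 0.29. In macrophage-gated cells 0.10 (0.08 to 0.11) turns to -0.03 with equal weight per cell. For these last 2 classes the direction of Ftl1 is not settled.

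The balance of Fth1 to Ftl1 UMIs differs more between classes than either library total does. There are 3.22 Fth1 UMIs per Ftl1 UMI in untreated macrophage-gated cells and 3.01 in MSA-2. In fibroblast-gated cells the number goes from 2.20 to 8.22, and in tumor-gated cells from 1.45 to 1.99. Neutrophil-gated cells stand at 17.9, so heavy chain RNA outweighs light chain RNA there more than in any other class described. Over all cells the number goes from 1.97 to 2.92. These are 3′ UMI ratios of 2 different transcripts and not protein ratios.

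**Figure D5:**
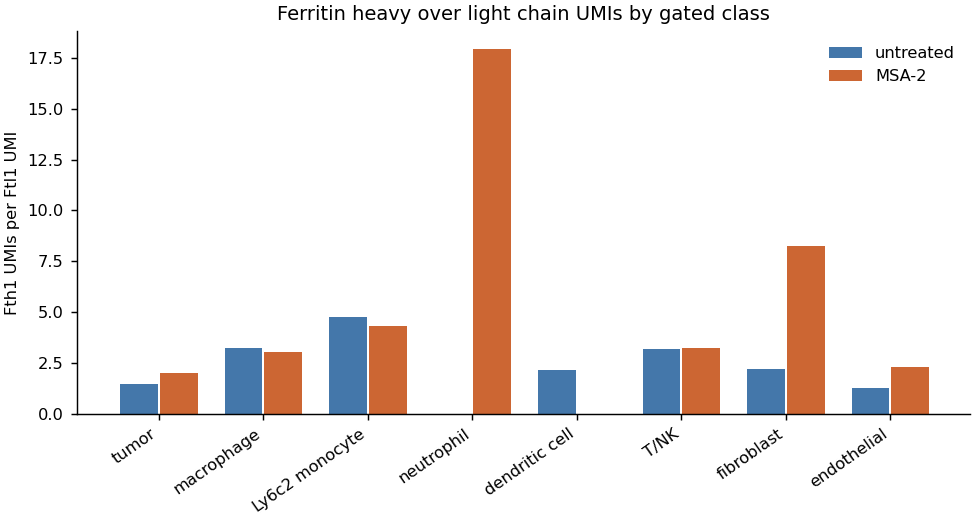
Fth1 UMIs per Ftl1 UMI in each gated class, untreated and MSA-2. Fibroblast-gated cells go from 2.20 to 8.22 and neutrophil-gated cells of MSA-2 are at 17.9.

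Slc40a1 (ENSMUSG00000025993, chr1:45908068-45926523) encodes ferroportin, the iron exporter. It is scarce, with 39 UMIs in all untreated cells (0.213 CPM) and 118 in MSA-2 (0.615 CPM), a log2 ratio of 1.53 (0.995 to 2.09) or 2.89-fold. The size of this Slc40a1 value depends on which cells are kept, with 0.40 under the stricter cell filter and 3.02 with equal weight per cell. Neutrophil-gated cells hold 74 of the MSA-2 UMIs, 62.7%, at 15.1 CPM (11.9 to 18.99). The higher total in MSA-2 is thus carried by a class with 29 cells in the untreated library. Thinned, 2.18% of neutrophil-gated cells have a Slc40a1 UMI, against 2.58% unthinned at a median depth of 1811. In T/NK-gated cells of MSA-2 0 of 210 thinned cells have a UMI (upper limit 1.74%), and unthinned also 0%, at a median depth of 4377.

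Slc40a1 in macrophage-gated cells is 29 UMIs (1.46 CPM) untreated and 13 UMIs (2.65 CPM) in MSA-2, too few for a direction. Tumor-gated cells have 3 and 13 UMIs, a log2 ratio of 1.93 with an interval of 0.07 to 4.38. Fibroblast-gated cells have 2 and 6, Ly6c2 monocyte-gated cells 0 and 2, T/NK-gated cells 1 and 0, endothelial-gated cells 1 and 0, and untreated dendritic cell-gated cells 0. Outside neutrophil-gated cells Slc40a1 is therefore scarce in every class at this depth. Of the untreated macrophage-gated UMIs, 24 lie in the 589 cells with a Hmox1 UMI after thinning, at 6.73 CPM, and 5 in the 2666 others, at 0.310 CPM (0.101 to 0.723). In MSA-2 the numbers are 8 UMIs in 292 cells and 4 in 581, so in the untreated library Slc40a1 lies mostly in cells with Hmox1, although only 0.414% of untreated macrophage-gated cells have any Slc40a1 UMI and the interval takes UMIs as independent.

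Slc11a1 (ENSMUSG00000026177, chr1:74375195-74386062) encodes NRAMP1, which moves iron and other divalent metals out of phagosomes. Untreated it is 95.1 CPM (90.9 to 99.5) in macrophage-gated and 64.4 CPM (51.8 to 79.0) in Ly6c2 monocyte-gated cells. The remaining untreated classes are low, at 6.54 CPM in endothelial-gated, 3.54 CPM in dendritic cell-gated, 2.93 CPM in T/NK-gated, 2.75 CPM in fibroblast-gated and 1.78 CPM in tumor-gated cells, and neighbours among them do not differ beyond the intervals. In MSA-2 it is 93.4 CPM (85.03 to 102) in neutrophil-gated, 76.3 CPM (68.8 to 84.5) in macrophage-gated and 74.1 CPM (64.2 to 85.1) in Ly6c2 monocyte-gated cells, against 3.50 CPM in T/NK-gated, 2.07 CPM in endothelial-gated, 1.69 CPM in fibroblast-gated and 1.55 CPM in tumor-gated cells. Slc11a1 is thus densest in macrophage-gated, monocyte-gated and neutrophil-gated cells, tumor-gated cells hold 7.22% of its UMIs untreated and 11.9% in MSA-2 at a low level, and macrophage-gated and monocyte-gated cells do not differ in MSA-2.

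Slc11a1 in macrophage-gated cells has a log2 ratio of -0.32 (-0.48 to -0.16), and in Ly6c2 monocyte-gated cells 0.20 (-0.16 to 0.58). Neither Slc11a1 value passes 2-fold. Over all cells it goes from 13.3 to 7.64 CPM, a log2 ratio of -0.80 that turns to 0.03 with equal weight per cell and passes 2-fold at -1.25 under the stricter cell filter. Macrophage-gated cells held 77.5% of the Slc11a1 UMIs untreated and 25.5% in MSA-2, where neutrophil-gated cells hold 31.2%. In tumor-gated cells -0.20 (-0.51 to 0.11) turns to 0.08 with equal weight and is -0.87 with the marker limit at 20% of the percentile, so no direction is read. Per 100 C1qa UMIs untreated tumor-gated cells have 1.37 Slc11a1 UMIs and macrophage-gated cells 1.38, so the untreated tumor-gated signal cannot be told apart from stray macrophage RNA. In MSA-2 the same numbers are 4.09 and 1.24, and the source of the tumor-gated Slc11a1 UMIs there was not tested. The tumor-gated number is higher in MSA-2 while C1qa goes from 130 to 37.9 CPM and Slc11a1 from 1.78 to 1.55 CPM. Thinned, 11.6% of macrophage-gated cells have a Slc11a1 UMI untreated and 10.8% in MSA-2, and unthinned 38.5% and 28.3% at median depths of 5648 and 5008. T/NK-gated cells have 0.521% and 0.476% thinned, and 1.15% and 1.81% unthinned at median depths of 3329 and 4377, so the macrophage-gated shares lie well above background in both libraries.

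Tfrc (ENSMUSG00000022797, chr16:32608920-32632794) encodes the transferrin receptor, the iron entry route. Untreated it is 58.2 CPM (52.0 to 65.0) in T/NK-gated and 47.9 CPM (46.5 to 49.3) in tumor-gated cells. Below them it is 24.8 CPM in dendritic cell-gated, 21.3 CPM in endothelial-gated, 16.3 CPM in Ly6c2 monocyte-gated, 14.0 CPM in fibroblast-gated and 9.22 CPM in macrophage-gated cells, and no neighbours among these 5 classes differ beyond the intervals. In MSA-2 it is 35.9 CPM in T/NK-gated, 30.8 CPM in tumor-gated, 17.6 CPM in neutrophil-gated, 13.9 CPM in macrophage-gated, 12.7 CPM in fibroblast-gated, 7.24 CPM in endothelial-gated and 6.33 CPM in Ly6c2 monocyte-gated cells, and the sole neighbours that differ are tumor-gated and neutrophil-gated cells. Tfrc is thus highest in T/NK-gated and tumor-gated cells in both libraries.

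Tfrc is lower in MSA-2 in both of its high classes. The log2 ratio is -0.63 (-0.70 to -0.57) in tumor-gated and -0.70 (-1.20 to -0.22) in T/NK-gated cells, and -0.55 (-0.60 to -0.50) over all cells. None of these Tfrc values reaches 2-fold. In macrophage-gated cells the ratio is 0.59 (0.17 to 0.9996) from 183 and 68 UMIs, and 0.02 when a marker counts at any UMI. In fibroblast-gated cells -0.14 (-0.61 to 0.34) turns to 0.12 with TMM factors. Monocyte-gated cells have 23 and 17 Tfrc UMIs and endothelial-gated cells 13 and 7, below the 50 UMIs set for a ratio. Cycling tumor-gated cells go from 56.5 to 30.6 CPM, a log2 ratio of -0.88 (-1.01 to -0.76), and the other tumor-gated cells from 45.1 to 30.9 CPM, -0.54 (-0.62 to -0.47). The excess of Tfrc in cycling tumor-gated cells is thus seen untreated and not in MSA-2. In T/NK-gated cells the cycling part has 93.5 CPM untreated from 80 UMIs and 40.2 CPM in MSA-2 from 11 UMIs, against 51.3 and 33.9 CPM in the rest.

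Another 47 genes of 8 iron lists were read beside the members. In macrophage-gated cells 10 of the 36 with enough UMIs are at least 2-fold higher in MSA-2 and 0 are lower, against the 5.86% and 5.49% of all genes given above. On the heme side with Hmox1, the heme carrier gene Slc48a1 goes from 50.02 to 117 CPM, the hemoglobin scavenger receptor gene Cd163 from 1.76 to 15.1 CPM and Hp from 3.73 to 30.0 CPM. Among targets of NRF2, a factor that can switch on Hmox1, Gclm goes from 39.2 to 88.0 CPM, Srxn1 from 26.5 to 56.5 CPM and Slc7a11 from 44.4 to 144 CPM. These are 3 of the 8 heme list genes and 3 of the 5 NRF2 targets with enough UMIs. The others of both lists do not pass 2-fold and go both ways. Resident-gated cells go from 0.737% to 7.90% of the gate, and the 10 Ly6c2 monocyte markers from 1563 to 2789 CPM within it. The part that cell composition has in the differences of Hmox1 and of these genes was not tested. The 4 other list genes past 2-fold are Steap3, from 5.74 to 11.8 CPM, Lcn2, from 0.252 to 57.6 CPM, Fbxl5, from 52.6 to 134 CPM, and Slc25a37, from 19.1 to 44.3 CPM. Of all 10, Lcn2, Hp, Fbxl5 and Slc7a11 are high in neutrophil-gated cells, at 3049, 572, 619 and 1555 CPM. The rise of the neutrophil markers in macrophage-gated cells is 1.24% of their sum in neutrophil-gated cells, and the part that neutrophil RNA has in these differences was not tested. The most abundant heme list gene, Blvrb, which acts after Hmox1, goes from 238 to 298 CPM, and the NRF2 gene Nfe2l2 from 521 to 398 CPM. Neither of them passes 2-fold.

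In fibroblast-gated cells, where Fth1 is 2.86-fold higher, 8 of 36 list genes are higher and 1 is lower, against 6.34% and 7.76% of all genes. Lcn2 goes from 76.0 to 1619.9 CPM, Hp from 388 to 1203 CPM, Slc39a14 from 92.7 to 292 CPM and Cp from 34.0 to 203 CPM. Steap4 goes from 31.0 to 102 CPM, Slc7a11 from 28.7 to 89.8 CPM, Slc39a8 from 12 to 90 UMIs and Hpx from 1 to 64 UMIs, a log2 ratio of 4.76 (2.23 to 10.09). Of the 8 uptake list genes with enough UMIs, 4 are past 2-fold higher, namely Lcn2, Slc39a14, Steap4 and Slc39a8. The other uptake genes do not pass 2-fold and go both ways. The 1 lower list gene, Flvcr1, goes from 20.5 to 9.74 CPM. In Ly6c2 monocyte-gated cells 6 of 28 are higher and 2 lower, against 11.1% and 10.9% of all genes. Hamp, the hepcidin gene, goes from 0 to 110 UMIs there, at least 19.3-fold when the 0 is read as 3 counts. Lcn2 goes from 3.54 to 340.3 CPM, Hp from 163 to 386 CPM, Fbxl5 from 96.9 to 327 CPM, Slc25a37 from 31.1 to 80.0 CPM and Slc7a11 from 87.0 to 320.2 CPM, while Trf goes from 133 to 21.2 CPM and Hfe from 38.2 to 7.07 CPM. The rise of the neutrophil markers in this class is 2.10% of their sum in neutrophil-gated cells, and its part in these differences was not tested either.

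Tumor-gated cells have 6 of 37 list genes higher and 2 lower, against 8.48% and 5.16% of all genes. Srxn1 goes from 36.9 to 88.7 CPM there, Cp from 15.6 to 45.8 CPM, Slc39a14 from 11.2 to 26.3 CPM and Steap4 from 0.162 to 1.05 CPM. Lcn2 goes from 0.324 to 45.6 CPM and Hp from 1.33 to 17.7 CPM, while Trf goes from 4.74 to 1.44 CPM and Nqo1 from 2.56 to 1.15 CPM. Tfrc and Ftl1 are thus lower in the tumor-gated class total in which Slc39a14 and Cp are higher. The 10 fibroblast markers also go from 1660.3 to 2425 CPM in tumor-gated cells, and fibroblast-gated cells of MSA-2 are higher than tumor-gated cells in Lcn2, Hp, Steap4, Slc39a14 and Cp. Neutrophil marker RNA is higher in tumor-gated cells too, and the source of these 5 differences was not tested. In T/NK-gated cells 2 of 29 list genes, Lcn2 and Slc7a11, are higher and 1, Flvcr1, is lower. The shares of all genes there are 3.80% and 7.05%. In endothelial-gated cells 2 of 13, Lcn2 and Keap1, are higher and 0 are lower, against 5.43% and 4.82% of all genes. The 10 neutrophil markers go from 48.0 to 916 CPM in T/NK-gated and from 8.18 to 857 CPM in endothelial-gated cells. Lcn2 and Slc7a11 are 3049 and 1555 CPM in neutrophil-gated cells, and the part of neutrophil RNA in their differences here was not tested.

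Across 14 class profiles of at least 50 cells, each member was correlated with 6358 other genes (6359 for Slc40a1), the profiles sharing libraries and depth. For Hmox1 the most alike genes are Ccl7 (r 0.892), Gm31522 (0.886), Ctsb (0.860), Arhgap24 (0.835) and Gpnmb (0.835). Fth1 is closest to Prdx5 (0.947), Asph (0.917), Rnf149 (0.914), Gla (0.912) and Snx18 (0.909). Ftl1 is closest to Ctsz (0.966), Atp6v1a (0.945), P2rx4 (0.918), Bri3 (0.910) and Sirpa (0.906). For Slc11a1 they are Milr1 (0.986), Igsf6 (0.983), Itgam (0.982), Fcgr4 (0.981) and Pilra (0.980). Slc40a1, never above 15.1 CPM, is closest to E230016K23Rik (0.976), Asprv1 (0.963), Stfa2 (0.963), Ly6g (0.961) and Gm29264 (0.961). That level is in neutrophil-gated cells of MSA-2, and no other profile is above 2.65 CPM, so 1 profile largely sets the Slc40a1 correlations. For Tfrc they are Rpa2 (0.862), Dnajc9 (0.839), Dusp14 (0.834), Mcm4 (0.832) and Rad18 (0.819). Among the members the closest pair is Fth1 with Slc11a1 (0.838), and Hmox1 with Tfrc is the most negative (-0.681). Tfrc is thus placed opposite to Hmox1 over classes.

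Each condition is 1 library of pooled tumors, so nothing here separates MSA-2 from differences between mice or preparations. Class gates rest on marker RNA, with 28.0% of untreated and 29.8% of MSA-2 gated cells at a gate's minimum (50.2% and 47.7% of tumor-gated cells). The tumor gate rests on 7 of its 10 markers, since Krt18 has 0 UMIs in tumor-gated cells and Krt8 and Nt5e are below 1 CPM in both libraries. Untreated, the tumor markers sum to 3811 CPM in tumor-gated, 3609 CPM in endothelial-gated, 2483 CPM in fibroblast-gated and 586 CPM in macrophage-gated cells. Their level is thus not particular to the tumor gate. Unassigned cells hold 27.5% and 30.0% of Hmox1 UMIs. The resident-gated values of Hmox1 rest on 24 and 69 cells, and Slc40a1 rests on few UMIs throughout. Iron, protein and enzyme activity were not measured, and ferritin and ferroportin are set largely after transcription.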

How the data were processed

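Single-cell RNA of 1 untreated and 1 MSA-2 library was read from the deposited raw UMI counts, which the authors made with Cell Ranger on mm10 and limited to barcodes passing their filter. The version is 7.0.0 in the processing notes and 7.0.1 in the matrix header. Of 14386 and 14617 barcodes, cells under 500 genes or over 20% mitochondrial UMIs were dropped, and 732 and 579 doublets were removed with the scrublet of scanpy 1.11.5 at a rate of 0.8% per 1000 barcodes. The 53 barcodes found in both libraries were kept.

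Each class has 10 markers. A marker counted in a cell when its scaled level reached 10% of its 99.9th percentile over kept cells, and a class needed at least 3 markers and 2 more than the next class. A plan to count a marker at any UMI left too many cells unassigned, so this limit was set after class sizes and the members' levels had been seen, and the first rule is among the alternatives. Sub-gates on cells thinned to 1500 UMIs needed 2 of 6 resident or 3 of 10 cycling markers, and a further planned sub-gate is not reported.

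UMIs were summed per class and library and given per 1000000. Ratios carry exact conditional binomial intervals, levels Poisson intervals and shares of cells Clopper-Pearson intervals. The ratios with their intervals and the Poisson intervals were tested on simulated independent Poisson counts. The gates, thinning and shares of cells were not tested in that way. Past 2-fold was a size rule, for genes reaching 50 UMIs over the 2 libraries and classes reaching 50 cells in each. Python 3.11.15, numpy 2.4.6, scipy 1.17.1, pandas 2.3.3, matplotlib 3.10.9, R 4.3.3 and edgeR 4.0.16, for TMM factors, were used, with GENCODE M21 for positions. Of 13 alternatives 10 were planned and 3 were added after seeing the data. They change the cell filter, doublets, gate and scaling. The rise of neutrophil markers as a percentage was computed after seeing the data.

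The members and gene lists were chosen with earlier results of these data known. Beyond the members, the text names iron list genes past 2-fold or among the 3 most abundant of a list, and the 5 genes most correlated with each member. The Ftl1 pseudogene Ftl1-ps1 has 0.439% and 0.505% as many UMIs as Ftl1. Columns left unused number 0.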

Additional observations from a re-analysis of the deposited data

Results flagged for a closer look

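Hmox1 has opposite directions in 2 parts of the macrophage gate. In resident-gated cells it goes from 1509.8 to 734 CPM, a log2 ratio of -1.04, and in the other macrophage-gated cells from 247 to 505 CPM, 1.04, so the 2 ratios differ by -2.08. It is listed because all libraries of one part move one way and those of the other part the opposite way, with 1 library per condition. The difference was not tested. It rests on 24 untreated and 69 MSA-2 resident-gated cells, with 240 and 358 Hmox1 UMIs, of which the top cell holds 42 and 21. The median resident-gated cell goes from 852 to 555 CPM. Whether the same kind of cell passed the sub-gate in both libraries cannot be told apart from a lower Hmox1 level per cell.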

How the results depend on the processing

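No paired analysis was possible because both libraries carry replicate 1 only. Every member ratio past 2-fold kept its direction under each alternative that left at least 50 cells per library, with Fth1 in fibroblast-gated cells from 1.13 to 1.78, Hmox1 in Ly6c2 monocyte-gated cells from 1.41 to 1.94, Hmox1 in macrophage-gated cells from 0.96 to 1.19 and Slc40a1 over all cells from 0.40 to 3.02. The macrophage-gated share of Hmox1 UMIs, 33.1% untreated and 10.3% in MSA-2, was 31.9% untreated without a cell filter, 32.0% and 9.90% with doublets kept, 9.93% in MSA-2 with at least 4 markers, 11.01% in MSA-2 with a lead of 1, 30.6% and 8.74% with a lead of 3, 27.1% and 8.14% with the marker limit at 20%, and 57.0% and 20.3% with equal weight per cell. Members past 2-fold became 1 in T/NK-gated cells with doublets kept, 2 in Ly6c2 monocyte-gated cells with a lead of 1, 1 in tumor-gated and 1 in T/NK-gated cells with the limit at 20%, 1 in tumor-gated cells without any marker of another class, 2 in fibroblast-gated cells with TMM factors and 0 in macrophage-gated cells with equal weight. The cause was not tested.

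Genes past 2-fold over all, tumor-gated, macrophage-gated, Ly6c2 monocyte-gated, T/NK-gated, fibroblast-gated and endothelial-gated cells, reported as 2967, 2081, 1288, 1510, 957, 1501 and 500, were 4543, 3621, 2513, 2900, 2086, 2848 and 1642 with at least 10 UMIs, and 1918, 1221, 723, 676, 380, 798 and 145 with at least 200, since more or fewer genes were compared. With 10 CPM added they were 360, 247, 409, 887, 348 and 560, endothelial-gated cells staying within 1.5 times. Dropping cells with any marker of another class, a setting added after seeing the data, left 132 and 13 macrophage-gated and 191 and 32 T/NK-gated cells, so classes other than tumor-gated cells were given no value there. Those macrophage-gated cells have Hmox1 at 349 and 196 CPM, the opposite direction to the reported value, from 236 and 10 UMIs. The minimum of 50 cells was applied to the alternatives after this value had been seen. Thinning to 3000 UMIs moved 52 of the shares of cells with a member beyond their interval and left 32 inside.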
